A study of Ambystoma mexicanum with 8 samples.

Results

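The most abundant transcripts of the axolotl jaw were described before and after regeneration. They are the 252 of 18035 rows of a table of read counts, 1.40% of its rows, whose mean level over 7 libraries was at least 500 CPM (counts per 1000000 counts in that library). Rows with the same counts in all 8 libraries were collapsed, which left 245 member sets among 11851 sets in the table. The members were chosen by these levels, averaged over both groups, so their levels and shares are given as descriptions without a test. The contrast between the groups did not enter the choice, except that a row high in a single group can pass on that group alone. In the regenerated libraries 12 members averaged under 500 CPM, and in the pre-surgery libraries 9 did. A level of 500 CPM or more in each of the 7 libraries was held by 200 members.

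The tissue came from juvenile albino axolotls (Ambystoma mexicanum, a salamander that regrows lost body parts), 5 cm from snout to tail. The regenerated group is jaw that had regrown for 5 weeks in animals 2, 3, 6 and 11. The pre-surgery group is the original jaw of animals with the same numbers at surgery, cut 5 mm from the midline. The labels name no transgene and no treatment other than surgery under anaesthetic. RNA of the whole jaw was poly(A)-selected and sequenced as single-end reads of 75 bp. Depth was 724555 to 942477 counts in the regenerated libraries and 714809 to 2519291 in those taken at surgery from animals 2, 3 and 6. That of animal 11 before surgery held 489, so it was left out and animal 11 has no usable pair. No label besides the animal number states separate processing, so p-values describe the spread among these libraries, which may be partly technical.

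In bulk messenger RNA of a vertebrate tissue, a small number of genes usually gives most of the molecules. Typical sources are ribosomal proteins and translation factors, mitochondrial genes, and the structural proteins of the tissue's own cells, such as collagens of bone and cartilage, keratins of skin and contractile proteins of muscle. Which of these the members are is not given here: the file lists identifiers that begin with ENSXETT and pairs none with a gene name, and the sources used here do not state which species' reference they belong to. RefSeq's axolotl gene table (assembly UKY_AmexF1_1) lists 0 identifiers with that prefix, so it could name none of them. That search cannot show which reference was used, nor whether the rows are axolotl transcripts. Without names, members are called by their rank in mean CPM. CPM is not corrected for transcript length, so a rank orders reads and not molecules. In whole tissue, fewer cells of a type and less RNA per cell cannot be told apart.

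The members took about the same share of reads in both groups. They held 78.6%, 77.7%, 77.6% and 74.1% of reads in the regenerated libraries of animals 2, 3, 6 and 11, against 76.5%, 77.5% and 76.8% in the pre-surgery libraries of animals 2, 3 and 6. The means were 77.0% ± 2.01 in the regrown jaws (SD, n = 4) and 76.9% ± 0.536 in the jaws taken at surgery (SD, n = 3), a difference of 0.06 percentage points. Animals 2, 3 and 6 each had the higher share after regeneration, by 2.07, 0.199 and 0.870 points. The regenerated library of animal 11 was the lowest of the 7.

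Within that nearly constant total, reads were divided differently. The 3 sets with the most reads took 26.8%, 21.2%, 30.1% and 15.9% of reads in the regenerated libraries of animals 2, 3, 6 and 11, against 14.8%, 15.1% and 19.3% in the pre-surgery libraries of animals 2, 3 and 6. The groups overlapped, because animal 11 lay below the pre-surgery library of animal 6. Within animals 2, 3 and 6 the gain of these 3 sets was 11.99, 6.13 and 10.8 percentage points. Rank 1 alone gained 5.92, 1.71 and 3.99 points in them. The sets of ranks 2 and 3 were near-identical in their counts, as were those of ranks 6 and 7. Each was counted singly in these shares, and whether they share reads was not tested. The sets of ranks 4 to 10 together held 10.5% ± 0.916 in the regrown jaws (SD, n = 4) and 10.9% ± 0.475 in the jaws taken at surgery (SD, n = 3). That sum hides opposite moves: by group mean, ranks 6 and 7 were higher in regenerated jaw and ranks 4 and 10 lower. Ranks 5, 8 and 9 had only slightly higher means there, and each was higher in some of animals 2, 3 and 6 and lower in others. The sets of ranks 11 to 50 held 19.4% ± 2.25 in regenerated jaw, against 21.7% ± 1.03 in pre-surgery jaw. The remaining 195 sets held 23.6% ± 2.36 in regenerated jaw, against 27.9% ± 1.30 in pre-surgery jaw, with differences of -6.13, -3.62 and -5.71 points within animals 2, 3 and 6. The number of sets needed to reach 50% of reads (each identical pair counted once) was 30, 39, 25 and 52 in the regenerated libraries of animals 2, 3, 6 and 11, against 53, 50 and 47 in the pre-surgery libraries of animals 2, 3 and 6. Animals 2, 3 and 6 thus each had fewer such sets after regeneration, and animal 11 lay in the pre-surgery range. Near-identical sets were counted singly here too.

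**Figure D1:**
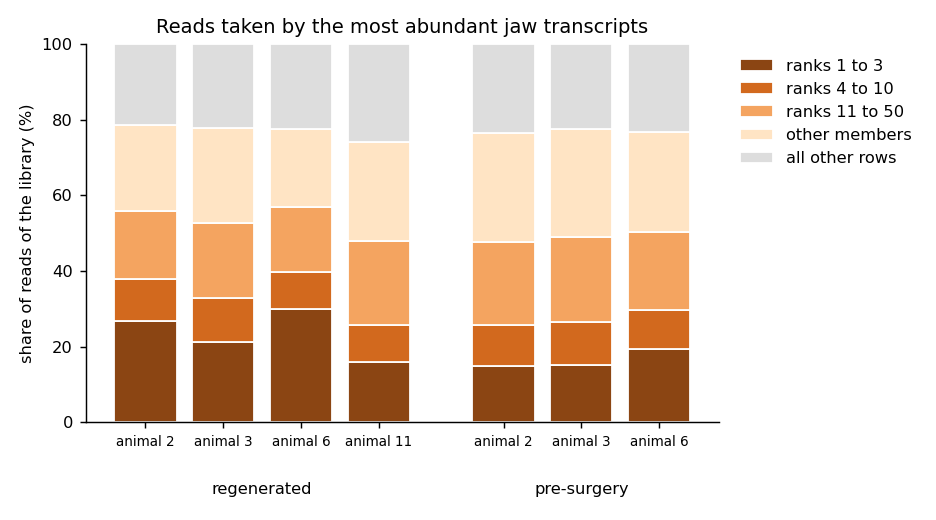
Share of the reads of each library (%, y axis) taken by members of ranks 1 to 3, 4 to 10, 11 to 50 and the other members, with all other rows in grey. The 4 regenerated libraries stand left of the 3 pre-surgery ones, and ranks 1 to 3 reach 30.1% in regenerated jaw of animal 6, against 19.3% in its pre-surgery jaw.

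A single transcript, ENSXETT00000007330, ranked first in each of the 7 libraries. It took 14.2%, 10.6%, 14.9% and 7.96% of reads in the regenerated libraries of animals 2, 3, 6 and 11, against 8.32%, 8.91% and 10.9% in the pre-surgery libraries of animals 2, 3 and 6. Animals 2, 3 and 6 were each higher after regeneration, while animal 11 was the lowest of all. The set of rank 2 stood at 63725, 53534, 76682 and 39761 CPM in regenerated jaw of animals 2, 3, 6 and 11, against 33094, 31388 and 42803 CPM in pre-surgery jaw of animals 2, 3 and 6. Its groups overlapped only through animal 11. The set of rank 3 was near-identical to it, with 57276 ± 15246 CPM in the regrown jaws (SD, n = 4) and 34700 ± 5931 CPM in the jaws taken at surgery (SD, n = 3).

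The other sets of the first 10 differed in how steady they were. Rank 5 stood at 18571, 20401, 17292 and 21340 CPM in regenerated jaw of animals 2, 3, 6 and 11, against 18501, 18947 and 18748 CPM in pre-surgery jaw of animals 2, 3 and 6. Rank 8 averaged 11844 ± 1075 CPM in the regrown jaws (SD, n = 4) and 11379 ± 103 CPM in the jaws taken at surgery (SD, n = 3). In pre-surgery jaw the coefficient of variation (CV, the SD divided by the mean) of these 2 sets was 1.19% and 0.903%. Counting alone gives 0.633% and 0.814% at the mean count of that group, which the deeper library of animal 6 raises. These counting values are therefore somewhat low. In regenerated jaw it was 9.36% and 9.07%. Rank 4 averaged 20655 ± 4149 CPM in the regrown jaws (SD, n = 4) and 25578 ± 2988 CPM in the jaws taken at surgery (SD, n = 3). Ranks 6 and 7, near-identical to each other, averaged 17334 ± 3410 and 16682 ± 3262 CPM in the regrown jaws (SD, n = 4), against 12647 ± 2056 and 12160 ± 1972 CPM in the jaws taken at surgery (SD, n = 3). Rank 9 averaged 11855 ± 1828 CPM in the regrown jaws (SD, n = 4) and 10934 ± 562.4 CPM in the jaws taken at surgery (SD, n = 3). Of the first 10 sets by regenerated mean, 8 were also among the first 10 by pre-surgery mean, and 7 sets were among the first 10 in each of the 7 libraries.

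Many members were near copies of one another in their counts. With the 7 pairs of identical rows included, 110 of the 252 rows fell into 46 groups of near-identical rows, and collapsing these left 188. Near-identical means that the rows' counts differed by at most 10% or 3 reads in each of the 8 libraries. The largest such group held 7 members, which lay between ranks 144 and 153. A near-identical partner, member or not, was held by 44.0% of members and by 18.9% of the 4089 rows tested. Only rows of at least 200 reads could have such a partner. Every member had that many reads but not every tested row did, so these shares are not on a like footing. Sharing of reads between near-identical rows was not tested, so the counts below are given for rows and for sets.

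Setting regenerated against pre-surgery jaw asked which of the members stood at another level in the regrown tissue. Without a term for the animal, 4 of the 252 members rose and 0 fell (edgeR quasi-likelihood test on 4089 rows, Benjamini-Hochberg adjusted p at most 0.05). The 4 rows made 3 near-identical groups. Over all rows tested, 0.562% were called in either direction, 0.538% as higher and 0.0245% as lower, against 1.59% of members in either direction. An unadjusted p under 0.05 was reached by 94 members, 17 higher and 77 lower, or 37.3%, against 13.2% of all rows tested. DESeq2 called 17 members, 6 higher and 11 lower, or 6.75% of members. Among the 18034 rows given to it, DESeq2 called 73, of which 47 were higher and 26 lower. The median log2 fold change was -0.17 over the members and 0.01 over all rows tested.

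The member that rose most was ENSXETT00000023717, of rank 230. It stood at 765, 716, 1132 and 806 CPM in regenerated jaw of animals 2, 3, 6 and 11, against 151, 181 and 276 CPM in pre-surgery jaw of animals 2, 3 and 6. The lowest regenerated library lay well above the highest pre-surgery library. The difference was 4.19-fold, a log2 fold change of 2.07 with SE 0.25 (edgeR adjusted p = 0.013). It passed 500 CPM on the regenerated libraries alone, so a difference was favoured by the choice of members. The other was ENSXETT00000027846, of rank 67, which stood at 3016, 3626, 5396 and 3318 CPM in regenerated jaw of animals 2, 3, 6 and 11, against 803, 856 and 1234 CPM in pre-surgery jaw of animals 2, 3 and 6. Its groups did not overlap either. The difference was 4.001-fold, a log2 fold change of 2.00 with SE 0.25 (edgeR adjusted p = 0.013). Its level was high enough in both groups to pass 500 CPM in either.

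The near-identical rows of ranks 15 and 16 were the other 2 calls. Rank 15 stood at 8788, 7354, 9441 and 6989 CPM in regenerated jaw of animals 2, 3, 6 and 11, against 3588, 3612 and 4508 CPM in pre-surgery jaw of animals 2, 3 and 6. The groups did not overlap, and the difference was 2.11-fold, a log2 fold change of 1.08 with SE 0.18 (edgeR adjusted p = 0.036). All 4 calls depended on single libraries. Leaving out the pre-surgery library of animal 2 or of animal 3 left 0 members called in edgeR, with 50 and 39 members at an unadjusted p under 0.05. Over all rows tested in these fits, 413 of 4631 and 391 of 4607 were at such a p. Without the regenerated library of animal 2 or 6, or the pre-surgery library of animal 6, 2 were called. With the regenerated library of animal 11 left out 8 were called, all higher, and without that of animal 3 there were 18, of which 4 were higher and 14 lower.

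**Figure D2:**
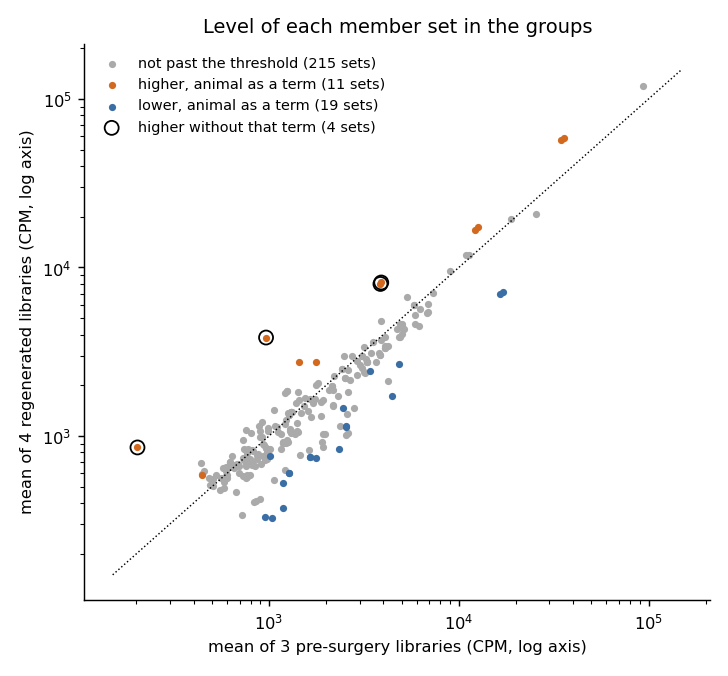
Mean of the 4 regenerated libraries (CPM, log y axis) against the mean of the 3 pre-surgery libraries (CPM, log x axis) for the 245 member sets, with the dotted line marking equal levels. Orange and blue points are the 11 sets higher and 19 sets lower with the animal as a term, and circles mark the 4 sets that also rose without it.

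With the animal as a term, more members passed and most of them were lower. The numbers in the titles were taken as pairing the libraries, and only animals 2, 3 and 6 inform this contrast. Then 34 of the 252 members passed, 11 higher and 23 lower (edgeR with the replicate block, adjusted p at most 0.05), and these included the 4 above. They made 30 sets and 24 near-identical groups. Over all rows tested 2.84% were called, 1.69% as higher and 1.15% as lower, against 13.5%, 4.37% and 9.13% of members. Among the 469 rows of 100 to under 500 CPM, 32 were called, of which 25 were higher and 7 lower. Rows with more counts have less counting error, so the shares called are not equally sensitive across levels, and no difference between these shares was tested. Some members also passed 500 CPM on a single group alone, which favours a call. The median log2 fold change in this fit was -0.19 over the members and -0.01 over all rows tested. Leaving out 1 library moved the count to between 10 and 63. The lowest came without the regenerated library of animal 2 (10, of which 7 higher), and counts over 1.5 times as high came without the regenerated library of animal 6 (63), the pre-surgery library of animal 6 (61) and that of animal 3 (53). In this fit, leaving out either library of animal 2, 3 or 6 leaves the other without its pair, so that animal no longer informs the contrast. The 63 and the 61 therefore both lack the pair of animal 6.

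The 11 members that rose with the animal as a term spanned log2 fold changes of 0.62 to 2.18, and 6 of them lay in the first 50 ranks. For 2 of the 11 the pre-surgery mean was under 500 CPM, so a rise was favoured by the choice of members. Rank 230, which had the 2.18, was 1 of these 2. Rank 2 had a log2 fold change of 0.92 (SE 0.09; edgeR adjusted p = 0.0020 with the block) and did not pass without the block (log2 fold change 0.74, SE 0.25, adjusted p = 0.27). Rank 3, near-identical to it, also passed with the block. The first-ranked transcript missed the threshold with the block (log2 fold change 0.56, SE 0.12, adjusted p = 0.0501) and stood at 0.38 (SE 0.25, adjusted p = 0.61) without it. Of the 11, 9 had their lowest regenerated level in animal 11, which has no pair in this fit.

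The 23 members that fell with the animal as a term had log2 fold changes from -1.42 to -0.52, with a median of -1.16. They made 19 sets, 3 of them in the first 50 ranks. The largest fall was that of ENSXETT00000051875, of rank 199, named after its values were seen and identical to 1 other row. It stood at 443, 752, 204 and 106 CPM in regenerated jaw of animals 2, 3, 6 and 11, against 1372, 1344 and 839 CPM in pre-surgery jaw of animals 2, 3 and 6. The groups did not overlap, yet the regenerated libraries differed among themselves by more than the pre-surgery ones. The log2 fold change was -1.42 with SE 0.20 (edgeR adjusted p = 0.0092 with the block, 0.29 without it). It averaged 376 ± 288 CPM in the regrown jaws (SD, n = 4) and passed 500 CPM on the pre-surgery libraries alone, so a fall was favoured by the choice of members, as it was for 5 of the 23 in all. The most abundant of the 23 was rank 10, at 7622, 14756, 2623 and 3707 CPM in regenerated jaw of animals 2, 3, 6 and 11, against 18454, 21249 and 11514 CPM in pre-surgery jaw of animals 2, 3 and 6. Here the regenerated library of animal 3 lay above the pre-surgery library of animal 6. The log2 fold change was -1.24 with SE 0.25 (edgeR adjusted p = 0.039 with the block, 0.36 without it).

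**Figure D3:**
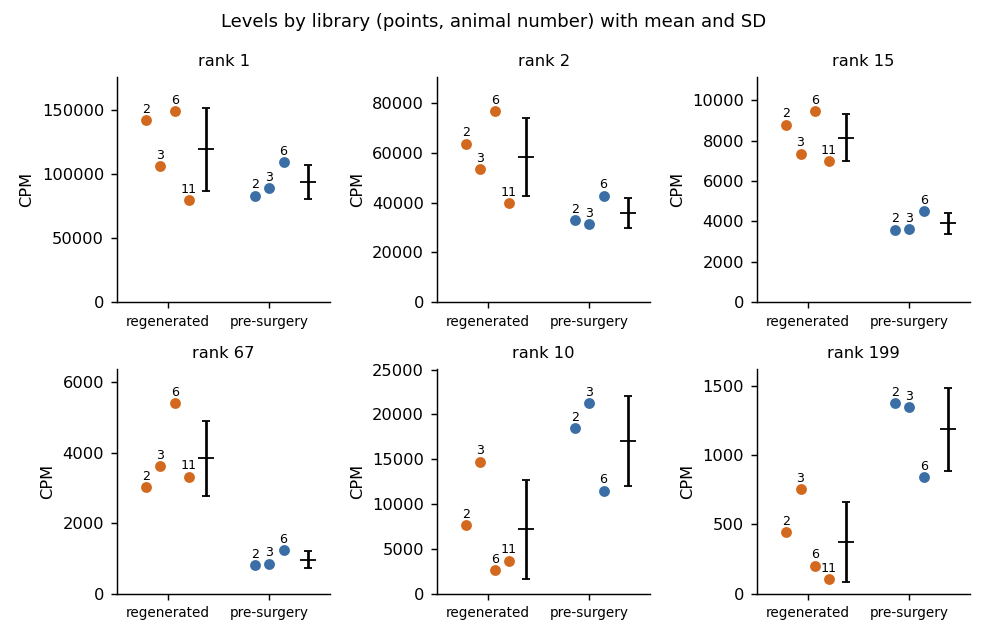
CPM (y axis, from 0) in each library of 6 sets: ranks 1, 2, 15 and 67, which were higher in regenerated jaw of animals 2, 3 and 6, and ranks 10 and 199, which were lower. Points carry the animal number, and bars give the mean and SD of 4 regenerated and 3 pre-surgery libraries.

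The order of the animals was then read in the 23 rows that fell. Of these, 21 were lowest in animal 6 in both groups and 17 were highest in animal 3 in both groups, counting animals 2, 3 and 6. The same order of the 3 animals before and after was found in 18 of 23. Among all 252 members, 103 were lowest in animal 6 in both groups, 59 were highest in animal 3 in both and 88 kept the order. Among all 4089 rows tested these counts were 469, 447 and 783. Counting error blurs the order in rows with fewer counts, so these shares are not equally sensitive. Passing with the animal as a term, and not without it, favours rows whose animals keep their order, so the counts for the 23 rows only describe them. On the TMM scale the fall was smallest in animal 3 in 22 of the 23. Their median log2 ratio of CPM in regenerated over pre-surgery jaw came to -1.40, -0.62 and -1.71 in animals 2, 3 and 6.

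Changes were then read within each animal, as the log2 ratio of its regenerated over its pre-surgery CPM. A group of 35 sets (39 rows, 30 near-identical groups) was at least 2-fold lower in animal 6, or 14.3% of member sets, where 8.05% of all tested sets were. Sets with few counts pass 2-fold more easily through counting error, so these shares are not on a like footing. Some of the 35, such as the set of rank 245, passed 500 CPM on the pre-surgery libraries alone. For those a fall was favoured by the choice of members. The 35 sets stood apart from the rest in animal 6, with a median log2 ratio of -1.78 and a range from -2.44 to -1.05. The group was cut on animal 6 after the values were seen, so only the other libraries add to it. In animal 2 all 35 were lower, 26 of them at least 2-fold, with a median of -1.20. In animal 3 the change was smaller: 34 were lower, 2 of them at least 2-fold, with a median of -0.45. In the regenerated library of animal 11 all 35 lay below each of the 3 pre-surgery libraries and at least 2-fold below their mean, with a median log2 ratio of -1.71. Of the other 210 member sets, 0 lay at least 2-fold below that mean in animal 11. Being lower was common, though: of all 245 member sets, 202 were lower in animal 2 and 170 in animal 3. At least 2-fold lower were 28 and 2 of them. In animal 11 it was not: 93 of the 245 lay below each of the 3 pre-surgery libraries and 105 above each. The median log2 ratio over the pre-surgery mean was 0.05 there. Of 3739 tested sets, 1468 were higher in animal 2 and 1859 in animal 3. The comparison for animal 11 uses the pre-surgery libraries of other animals, that of animal 6 included.

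Together these 35 sets took 4.802%, 8.86%, 2.10% and 2.91% of reads in the regenerated libraries of animals 2, 3, 6 and 11, against 11.1%, 12.5% and 7.54% in the pre-surgery libraries of animals 2, 3 and 6. The regenerated library of animal 3 lay above the pre-surgery library of animal 6, which was the lowest pre-surgery library for 34 of the 35 sets. They ranged from rank 10 to rank 245, so they were not a band of one level. With the animal as a term 17 of the 35 sets passed, among 30 of all 245 member sets and 2.84% of all rows tested. A 2-fold fall in 1 of the 3 pairs behind that test favours passing, so the count is a description. In the other direction 4 sets (1.63% of member sets) were at least 2-fold higher in animal 6, where 5.19% of all tested sets were. All 4 were also at least 2-fold higher in animals 2 and 3, and they are the 4 sets that rose without the block. Sets with few counts pass 2-fold more easily through counting error, so the 1.63% and 5.19% are not on a like footing.

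**Figure D4:**
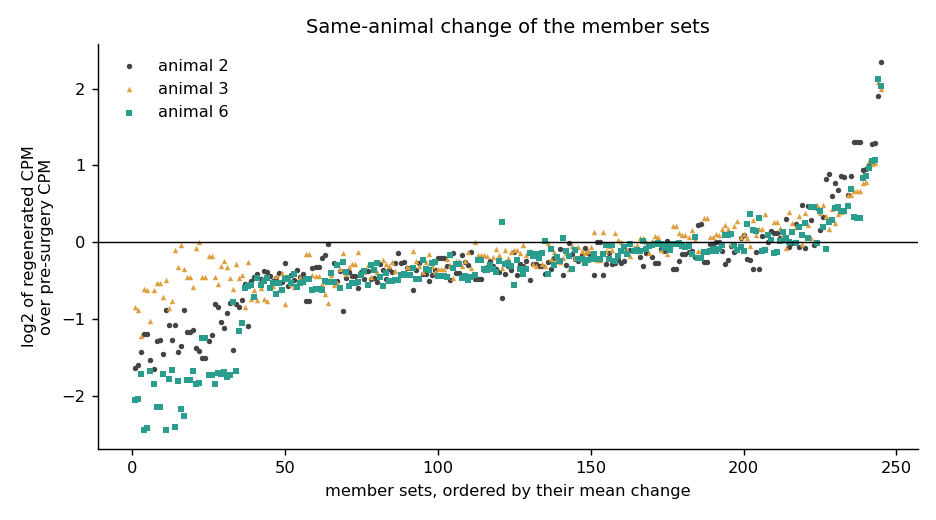
Log2 of regenerated over pre-surgery CPM (y axis) of the 245 member sets in animals 2, 3 and 6, ordered along the x axis by their mean change. At the left end the points of animal 6 lie between -2.44 and -1.05 while those of animal 3 lie nearer 0, and at the right end the 3 animals rise together.

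Most members were lower on the CPM scale in each of the 3 animals. CPM adds up to a fixed total in each library, so these falls and the gain of the first 3 sets are not independent results. Of the 245 sets, 158 (64.5%) were lower in animals 2, 3 and 6 alike and 26 (10.6%) were higher in all 3, where 24.0% and 14.6% of all tested sets were. Most tested sets have fewer counts and more counting error, so these shares are not equally sensitive across levels. Nearer in level, of the 433 sets of 100 to under 500 CPM, 168 were lower and 75 higher in all 3. The median log2 ratio of all tested rows was -0.16, -0.0042 and -0.07 in animals 2, 3 and 6. With TMM scaling, which rescales each library by its own factor, 134 sets (54.7%) were lower and 39 (15.9%) higher in 3 of 3 animals, where 19.4% and 18.6% of all tested sets were. Of the 433 sets of 100 to under 500 CPM, 123 were then lower and 93 higher. The members' median log2 ratio on the TMM scale was -0.12, -0.16 and -0.21 in animals 2, 3 and 6. The changes resembled one another between animals, whose pairs share no library. Over the 245 sets, which are not independent and share the depth of their libraries, Pearson's r of the log2 CPM ratios was 0.77 between animals 2 and 3, 0.85 between 2 and 6 and 0.71 between 3 and 6, and Spearman's rho was 0.70, 0.79 and 0.81.

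By rank alone, all 4 regenerated libraries lay below all 3 pre-surgery libraries in 62 sets (25.3%) and above them in 10 (4.08%), where 5.54% and 6.42% of all tested sets did so. On the TMM scale the counts were 66 and 15, where 6.07% and 7.11% of all tested sets did so. Counting error is larger in sets with fewer counts and makes groups overlap more, so these shares are not equally sensitive across levels. The order of the sets by group mean nonetheless changed little. Their rank moved by a median of 14 places, by at most 10 places in 103 of 245 sets and by over 50 places in 37, of which 13 gained and 24 lost. The largest gain was that of the set of rank 230 named above, which stood at rank 158 by regenerated mean and 414 by pre-surgery mean. The largest loss was that of rank 219, which stood at rank 297 by regenerated mean and 158 by pre-surgery mean. Its levels were 399, 640, 176 and 85.6 CPM in regenerated jaw of animals 2, 3, 6 and 11, against 1203, 1177 and 721 CPM in pre-surgery jaw of animals 2, 3 and 6. Rank 219 passed 500 CPM on the pre-surgery libraries alone, and rank 230 on the regenerated libraries alone. Both of these changes of rank were thus favoured by the choice of members. Of the 245 sets with the most reads by regenerated mean, 231 were also among the first 245 by pre-surgery mean.

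The spread between libraries was described by the CV, which holds differences between animals as well as counting error. The median CV over the sets was 14.7% among the 4 regenerated libraries and 9.09% among the 3 pre-surgery libraries. Counting alone, at the mean count of each group, gives a median of 3.20% and 2.35%. The deeper library of animal 6 raises the pre-surgery mean count, so the 2.35% is somewhat low. With the same 3 animals in each group, the median was 10.8% in regenerated jaw and 9.09% in pre-surgery jaw, and the CV was higher in regenerated jaw in 152 of 245 sets (62.0%), against 52.4% of the sets of 100 to under 500 CPM. At 1000 to under 5000 CPM 95 of 130 sets had the higher CV in regenerated jaw, and at 500 to under 1000 CPM 41 of 90 did. The most variable member in regenerated jaw, of rank 122, stood at 761, 2044, 334 and 312 CPM in regenerated jaw of animals 2, 3, 6 and 11, a CV of 94.3%, against 2050, 2542 and 1168 CPM in pre-surgery jaw of animals 2, 3 and 6, a CV of 36.2%. The steadiest, of rank 190, stood at 673, 701, 683 and 727 CPM in regenerated jaw of animals 2, 3, 6 and 11, a CV of 3.41%, against 814, 868 and 755 CPM in pre-surgery jaw of animals 2, 3 and 6. Its groups did not overlap, and it did not pass in edgeR (log2 fold change -0.22, SE 0.12, adjusted p = 0.50).

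**Figure D5:**
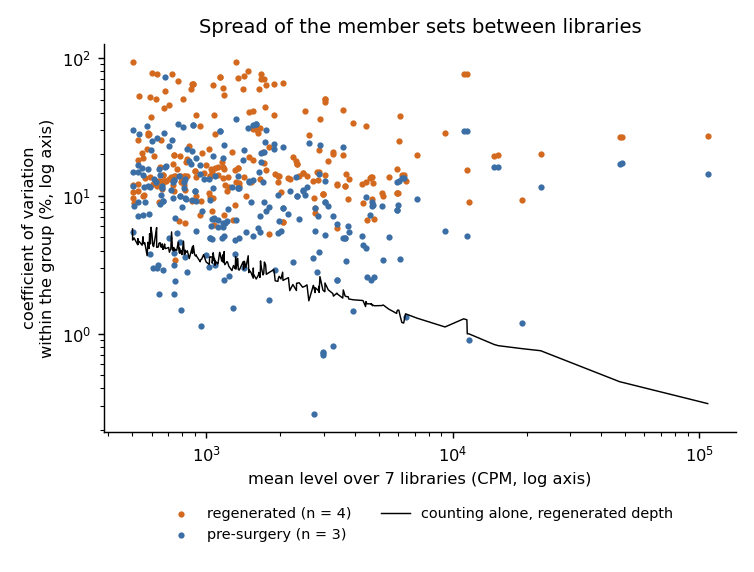
Coefficient of variation within each group (%, log y axis) against the mean CPM over 7 libraries (log x axis) for the 245 member sets, regenerated in orange and pre-surgery in blue. The black line gives the variation from counting alone at the depth of the regenerated libraries, and nearly all regenerated points lie above it.

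Rows on either side of the threshold had nearly the same mean level. The lowest members averaged 502.3 and 501.8 CPM, and the rows just outside averaged 499.9 and 498.6 CPM. The last member stood at 329, 789, 132 and 108 CPM in regenerated jaw of animals 2, 3, 6 and 11, against 855, 831 and 469 CPM in pre-surgery jaw of animals 2, 3 and 6. The first row outside was steadier and stood between 442 and 607 CPM in regenerated jaw and between 492 and 512 CPM in pre-surgery jaw.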

How the data were processed

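Raw counts of reads per transcript identifier were deposited in 1 table, with 1 column per library named by its sample title. Which aligner, counter, reference or filter made them is not given in the sources used here. The submitters' processing notes name DESeq and DESeq2, without version or role. All 8 columns were read and 0 were left unread.

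CPM was computed on library totals. Counts were tested over all rows with edgeR 4.0.16 (R 4.3.3): quasi-likelihood test, TMM normalization, filterByExpr (minimum count 10, total 15), Benjamini-Hochberg adjusted p at most 0.05, 4 regenerated against 3 pre-surgery libraries. All 252 members passed the filter. A standard error is the log2 fold change over the square root of F. TMM-scaled CPM used the same factors, rescaled to a geometric mean of 1. The members and lists were chosen with earlier results of these data known. Identifiers were limited to the first-ranked set, the 2 largest rises with the same sign in animals 2, 3 and 6, and 1 fall, because they carry no gene name. Other sets named are the first 10, the most and least variable, the largest gain and loss of rank, and those at the threshold.

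Alternatives were DESeq2 1.42.0, other scalings, filters and thresholds, all 8 libraries, 1 row per identical or near-identical set, each library left out, and the animal as a replicate block. Near-identical groups used rows of at least 200 reads and linked rows through others. Their use, TMM-scaled same-animal counts, and the block combined with a left-out library or another scaling were chosen after seeing the data. Titles give both libraries of animals 2, 3 and 6 the same number, which was taken as the animal. Deviations from the group means of log2 CPM correlated over the rows tested at r = 0.07, 0.19 and 0.15 in animals 2, 3 and 6, and at -0.14 to 0.04 between different numbers. Over the members r was 0.09, 0.76 and 0.81 in these animals, and -0.79 to 0.41 between different numbers. There regenerated jaw of animal 2 correlated more with pre-surgery jaw of animal 3 (0.23), so the members do not bear out the pairing of animal 2. Deviations from a mean of 3 libraries cancel out, which pushes r between different numbers downwards. The fits were checked on simulated counts whose rows all had the same spread. The members differ widely in spread, so that check does not bear on single calls. The members had at least 62 counts in each of the 7 libraries, and a floor of 3 counts equals 1.19 to 4.20 CPM there. Intervals and floors cover counting error only. Figures were drawn with matplotlib 3.10.9.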

Additional observations from a re-analysis of the deposited data

Results flagged for a closer look

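The pre-surgery library of animal 11, with 489 reads, entered none of the comparisons, and the first 3 and first 10 sets took a larger share of it than of the deep pre-surgery libraries. The first-ranked transcript alone did not, at 8.59% of its reads, against 8.32% to 10.9% in the deep pre-surgery libraries. The 3 sets with the most reads took 123 of its 489 reads, or 25.2% (95% Wilson interval 21.5% to 29.2%), against 14.8% to 19.3% in the deep pre-surgery libraries and 15.9% to 30.1% in the regenerated libraries. The first 10 sets took 212 reads, or 43.4% (39.0% to 47.8%), against 25.6% to 29.7% in the deep pre-surgery libraries and 25.7% to 39.7% in the regenerated libraries. These reads lay in few sets. Rank 9 held 45, against 1.05% to 1.16% of reads in the deep pre-surgery libraries. Ranks 1, 2 and 3 held 42, 41 and 40, and the others of the first 10 held 6 to 9 each. The intervals treat reads as independent, although ranks 2 and 3 are near-identical. All members together took 391 reads, or 80.0% (76.2% to 83.3%), where the deep pre-surgery libraries held 76.5% to 77.5%. Of the 252 members, 97 had a read in it and 28 had at least 3. Dixon's test of the 4 regenerated libraries, made on 22 shares and levels of this report, set 0 apart, where chance sets about 5% of groups apart.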

How the results depend on the processing

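Without the block 4 members were called. There were 4 or 5 with DESeq2 size factors in edgeR, 10 counts in 4 libraries or 1 row per identical set. Collapsing near-identical rows left 3. On all 8 libraries 4 were called (2 higher, 2 lower), but only 2 of these were among the first 4. There were 8 with library totals (5 higher, 3 lower), 17 in DESeq2, 57 without a low-count filter (12 higher, 45 lower), 34 with the replicate block, 57 with it in DESeq2 (16 higher, 41 lower), 32 with it on all 8 libraries (6 higher, 26 lower), and 0 at an adjusted p at most 0.01 (edgeR). Leaving out 1 library gave 0 to 18. Over all rows, 23 were called (22 higher, 1 lower), 41 with library totals, 73 in DESeq2, 308 without a filter, 116 with the block, 108 with it in DESeq2, 73 on all 8 libraries, 239 with the block on all 8, 1 at an adjusted p at most 0.01, and 1 to 55 with 1 library left out. The 34 calls of the replicate block were 57 in DESeq2 and 69 with library totals (16 higher, 53 lower), 36 with DESeq2 size factors, 23 with 1 row per near-identical set, and 10 to 63 with 1 library left out (61 without the pre-surgery library of animal 6). For these counts the cause was not tested. The share of reads on the members differed between groups by -0.15 points at 250 CPM and 1.003 at 1000 CPM, and by -0.46 to 1.05 with 1 library left out. The gain of the first 10 sets, near-identical ones counted singly, was 6.72 points, and 4.83 to 9.47 with 1 library left out. Both called transcripts named kept their direction under 18 of 18 alternatives and failed the threshold in 2 of them. Log2 fold changes near 0 changed sign with the near-empty library included: rank 9 stood at -0.17, and at -0.11 with the block, and rank 4 at 0.041 with the block. The lowest count of a member in a regenerated library was 62, above the floor of 3 counts, so no member's fall reached that floor.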
